A study of Mus musculus with 18 samples.

Results

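Whole testes of repro9/repro9 mutant mice were compared with those of wild-type mice at 17 days postpartum (dpp) across the genes of an Affymetrix whole-genome mouse array. The comparison rests on 10 of the 18 arrays of the series, 5 labelled as mutant at that age and 5 as wild type. The other 8 arrays, of 14 dpp, served only to test whether the difference depended on age. Both groups were juvenile mice kept under regular conditions, with no treatment named, and strain and genetic background are not given in the sources used here. The mutants carry the allele in every cell of the body, and the RNA was that of homogenised testes, so germ cells and somatic cells were measured together. At least 3 mice of each genotype were used, per the series' text, and which mouse or mice an array stands for is not stated. The replicates may therefore be technical, and p-values measure only the spread between these arrays.

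The allele repro9 was induced chemically in Mybl1, which encodes A-MYB, a transcription factor of male germ cells that acts from the pachytene stage of meiotic prophase. In pachytene the homologous chromosomes are joined along their length, recombination proceeds, the X and Y chromosomes are silenced, and the cell begins to transcribe many genes whose proteins are used later, in the spermatid and the sperm. Spermatocytes of repro9 homozygotes are known to arrest at that stage. In the first wave of spermatogenesis a wild-type testis of this age holds late pachytene and diplotene spermatocytes as its most advanced cells, which is why the age was chosen, per the series' text. In whole-testis RNA, fewer cells of a type and less RNA per cell cannot be told apart.

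The 10 arrays fell into 2 technical sets that the labels do not name. On 3 arrays (mutant replicates 1 and 2, wild-type replicate 1) the β-actin control probe sets gave a 3′ to 5′ signal ratio of 2.31 to 2.92. On the other 7 the ratio was 102.6 to 125.1, and the trimmed mean signal was 394.9 instead of 500. A high ratio means that signal came mostly from the 3′ end of the transcript. Both genotypes occur in both sets, and each difference below is the genotype term of a limma fit that also holds the set, so it need not equal the ratio of the raw means. Differences are log2 signal, mutant minus wild type, ± the standard error (n = 5 and 5 arrays), and a gene was called at an adjusted p under 0.05.

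The promoters of 5 of the 8 genes with the largest falls are shown here, because A-MYB binds DNA through the MYB recognition sequence and the results turn on these genes. Each window is 300 bases of RefSeq (build GRCm38.p6), read 5′ to 3′ on the gene's strand, from 250 bases before the annotated start. Capitals mark matches, on either strand, to CAACNG, a loose form of the MYB motif in which N is any base. Other forms of the motif are not marked. The windows lie at chr5:3656754-3657053 (+ strand) for Tmbim7, chr5:97456974-97457273 (− strand) for Gk2, chr6:65952321-65952620 (+ strand) for 4930544G11Rik, chr8:104321977-104322276 (+ strand) for Cmtm2b and chr7:46861013-46861312 (+ strand) for Ldhc.
Tmbim7: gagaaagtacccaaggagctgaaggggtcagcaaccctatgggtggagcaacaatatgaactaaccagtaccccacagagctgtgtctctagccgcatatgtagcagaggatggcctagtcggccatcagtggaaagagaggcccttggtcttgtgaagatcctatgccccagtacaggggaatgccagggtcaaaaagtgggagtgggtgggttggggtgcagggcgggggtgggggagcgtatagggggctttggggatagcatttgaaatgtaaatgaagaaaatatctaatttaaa
Gk2: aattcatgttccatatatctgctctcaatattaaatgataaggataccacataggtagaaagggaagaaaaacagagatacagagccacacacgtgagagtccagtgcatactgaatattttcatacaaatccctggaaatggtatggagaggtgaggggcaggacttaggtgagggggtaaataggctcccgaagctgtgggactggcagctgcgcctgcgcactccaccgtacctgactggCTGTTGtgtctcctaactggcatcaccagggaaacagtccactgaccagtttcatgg
4930544G11Rik: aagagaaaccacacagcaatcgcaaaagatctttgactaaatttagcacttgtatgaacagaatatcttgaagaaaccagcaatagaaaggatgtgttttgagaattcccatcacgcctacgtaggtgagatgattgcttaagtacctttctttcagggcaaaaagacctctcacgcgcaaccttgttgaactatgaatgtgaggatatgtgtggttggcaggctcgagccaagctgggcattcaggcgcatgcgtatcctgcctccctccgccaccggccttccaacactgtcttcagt
Cmtm2b: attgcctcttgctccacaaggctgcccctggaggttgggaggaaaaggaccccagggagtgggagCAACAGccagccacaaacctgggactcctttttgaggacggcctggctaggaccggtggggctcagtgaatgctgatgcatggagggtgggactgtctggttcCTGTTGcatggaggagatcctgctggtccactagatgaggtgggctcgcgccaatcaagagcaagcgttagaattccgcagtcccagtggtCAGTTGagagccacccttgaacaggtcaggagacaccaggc
Ldhc: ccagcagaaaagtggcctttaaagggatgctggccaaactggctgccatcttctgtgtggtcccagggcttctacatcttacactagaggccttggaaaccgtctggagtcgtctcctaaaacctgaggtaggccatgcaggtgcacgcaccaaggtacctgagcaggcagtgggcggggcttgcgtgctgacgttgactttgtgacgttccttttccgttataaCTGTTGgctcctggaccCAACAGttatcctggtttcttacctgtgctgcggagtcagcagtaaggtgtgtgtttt
The window of Cmtm2b held 3 matches, that of Ldhc 2 and that of Gk2 1. CAACTG, read as CAGTTG on the other strand, was among those of Cmtm2b, and all other matches were CAACAG. The windows of Tmbim7 and 4930544G11Rik held 0, which says only that these letters are not in these windows.

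Over all genes, CAACNG was found in 33.5% of the 13598 windows of tested genes and in 35% of the 32851 windows in the table. Of the 1235 windows of genes called lower in mutants, 48.9% held it, and the share was 53.1% for genes that fell at least 4-fold and 62.9% for the 167 windows of genes that fell at least 16-fold. Windows of genes called higher held it in 29.8% of cases, and those of genes not called in 32.1%. CAACGG, 1 case of CAACNG, was found in 15.2% of windows of genes called lower, 5.19% of genes called higher and 6.83% of all tested genes. CAACTG was found in 14.8%, 10.2% and 10.9% of the same windows. The palindromic form AACNGTT, which overlaps both, was found in 5.83%, 4.07% and 3.56%. AACTGCC, a form with another 3′ end, was found in 6.72%, 3.58% and 3.67%. With falls of at least 4-fold and at least 16-fold, the share of CAACGG did not grow (14.6% and 13.8%). The shares of CAACTG (18.8% and 25.1%), AACNGTT (8.35% and 14.4%) and AACTGCC (10.1% and 12.6%) did. Base composition differed between these groups of windows too. The median GC content was 58.7% in windows of genes called lower and 52% where the fall was at least 16-fold. It was 61% in genes called higher and 60.3% in all tested genes. The part of base composition in the shares was not tested. RefSeq windows were found for 992 of the 1220 genes called lower.

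Mybl1 itself was lower in the mutants. Its signal was 293, 278, 123, 83.4 and 154 on mutant replicates 1 to 5, and 1076, 1475, 2309, 1419 and 3959 on the wild-type replicates. Every mutant array lay below every wild-type array. The difference was −3.54 ± 0.41 (limma, adjusted p = 1.02e-04), an 11.6-fold fall, and both of its tested probe sets were lower. It was −4.17 within the high-ratio set and −1.92 within the low-ratio set. The allele still makes a transcript, so the level of Mybl1 RNA is a result and not a test of the labels.

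Of 13209 genes tested, 1220 fell and 768 rose in the mutants (limma, 9.24% and 5.81%). The falls were far larger than the rises. Of the genes that fell, 997 did so by at least 2-fold, 530 by at least 4-fold, 175 by at least 16-fold and 46 by at least 64-fold. Of those that rose, 173 did so by at least 2-fold, 8 by at least 4-fold and 0 by at least 16-fold. For 80 of the falling genes the signal lay below the array's 40th percentile on all 5 mutant arrays. Arrays of the genotypes did not overlap for 753 genes with lower signal in mutants (5.7%) and 311 with higher signal (2.35%).

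How many genes rose depended on which rescaling of the arrays was used. The median difference over all genes was 0.22 and not 0. With every array shifted to a common median that value was 0.04, and 1235 genes fell (9.35%) while 181 rose (1.37%). With quantile normalization it was 0.145, and 1274 genes fell (9.645%) while 793 rose (6.003%), so that rescaling did not lower the count of rises. Among 27654 probe sets, 1855 fell (6.71%) and 1170 rose (4.23%), so that 38.7% of the calls were rises, and on the common median 1890 fell and 280 rose, or 12.9%. The rises also rest on few arrays: 219 probe sets rose without wild-type replicate 1, 366 without mutant replicate 3 and 1878 without wild-type replicate 4. Most lists below hold 0 to 6 rises, and leaving out 1 array changed such a count by over 1.5 times in every list that holds a rise. The plot of difference against wild-type level shows the falls reaching far below the cloud at all wild-type levels, and the rises as its upper edge.

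The 8 largest falls by the naming rule include enzymes of sperm metabolism, sperm surface and flagellar proteins and genes of less settled function. Tmbim7, a member of the family of Bax inhibitor-like membrane proteins, had a signal of 7.23, 14.6, 4.74, 60.6 and 3.08 on the mutant arrays and 5694, 2901, 1834, 628 and 3339 on the wild-type arrays. Its difference was −8.01 ± 0.77 (adjusted p = 2.21e-05). The highest mutant array was below the lowest wild-type array, which the naming rule requires of all 8 genes.

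Eid3, which encodes a testis-expressed subunit of the SMC5/6 chromosome complex, gave 24.6, 16.5, 37.4, 26.8 and 17.5 in mutants and 4573, 5215, 4339, 1519 and 9028 in wild type, a difference of −7.47 ± 0.42 (adjusted p = 3.83e-07). Its mutant arrays lay closer together than those of any other gene in this group of 8 on the plot of single arrays. Cmtm2b, which encodes a testis-expressed membrane protein of the CKLF-like MARVEL family, gave 23.1, 67.4, 10.2, 75.1 and 5.92 in mutants and 8707, 3463, 2262, 952 and 6660 in wild type (−7.46 ± 0.68, adjusted p = 1.45e-05). Its paralog Cmtm2a fell as well (−6.92 ± 0.59, adjusted p = 8.77e-06).

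Gk2, a testis-specific glycerol kinase, gave 18.9, 30.4, 41.1, 214 and 4.74 in mutants and 8667, 6819, 5347, 2314 and 12220 in wild type. Ldhc, the germ cell form of lactate dehydrogenase, gave 18.4, 179, 414, 968 and 74.6 in mutants and 17030, 42410, 36170, 43300 and 54180 in wild type. Adam2, a subunit of the sperm surface protein fertilin, gave 42.5, 40.9, 115, 174 and 19.8 in mutants and 6651, 13800, 12620, 10390 and 23650 in wild type. Mutant replicate 4 was the highest mutant array for all 3 genes, and the lowest wild-type array was replicate 4 for Gk2 and replicate 1 for Ldhc and Adam2.

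The other 2 genes were 4930544G11Rik, an uncharacterised transcript (−7.48 ± 0.77), and Spag6l, a protein of the central pair of the flagellum (−7.32 ± 0.65). Because the mutant signals of these 8 genes lie near the bottom of the scale, the size of the fall depends on how low signals are read. With 50 added to every signal the 8 differences ran from −6.89 (Ldhc) to −4.93 (Spag6l), all called.

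The gene with the smallest adjusted p of all was Spata4, a testis gene of unsettled function. Its signal was 145, 155, 380, 349 and 173 in mutants and 14920, 40380, 34420, 23310 and 53740 in wild type. The difference was −6.90 ± 0.27 (adjusted p = 4.63e-08).

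**Figure D1:**
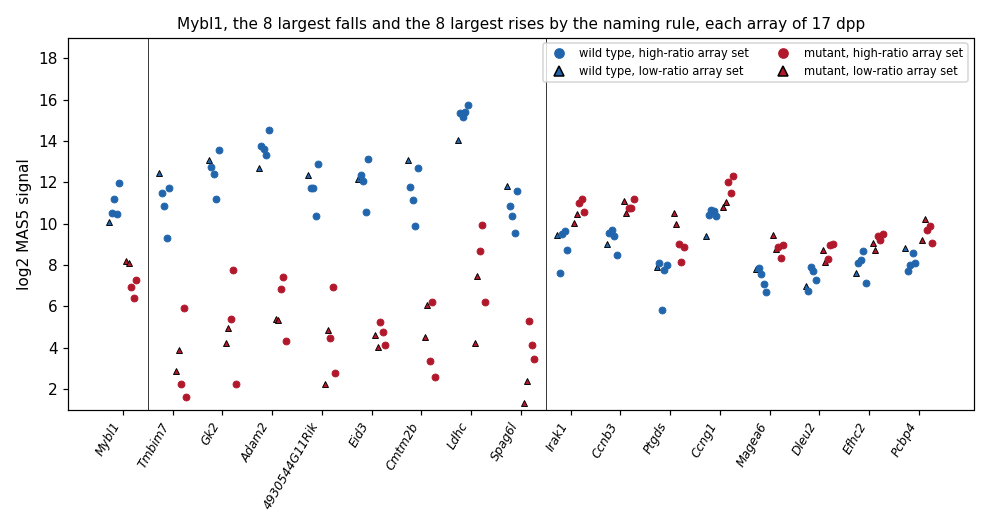
Log2 MAS5 signal (vertical axis) on each of the 10 arrays of 17 dpp for Mybl1, the 8 largest falls and the 8 largest rises by the naming rule (horizontal axis). Wild type is blue and mutant red, triangles are the low-ratio array set and circles the high-ratio set. The naming rule took only genes whose mutant and wild-type points do not overlap. Those of Mybl1, named outside that rule, do not overlap either. The gap is wide for the falls and narrow for the rises.

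The falls were seen in separate arrays. Within the high-ratio set (3 mutant and 4 wild-type arrays) 840 genes fell (6.36%), and within the low-ratio set (2 mutant arrays and 1 wild-type array, whose spread is taken from all arrays) 410 fell (3.1%). Of those 410 genes, 342 also fell in the high-ratio set. The differences of the 2 sets, which share no array, correlated at r = 0.76 across the 13209 genes, which are not independent replicates, and 77.3% of genes had the same sign. Whether single genes differ unequally in the 2 sets could not be decided, since the low-ratio set holds 1 wild-type array. The median over genes of the low-ratio difference minus the high-ratio difference was 0.05. Rises were far fewer within sets, 131 in the high-ratio set (0.992%) and 4 in the low-ratio set (0.0303%).

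**Figure D2:**
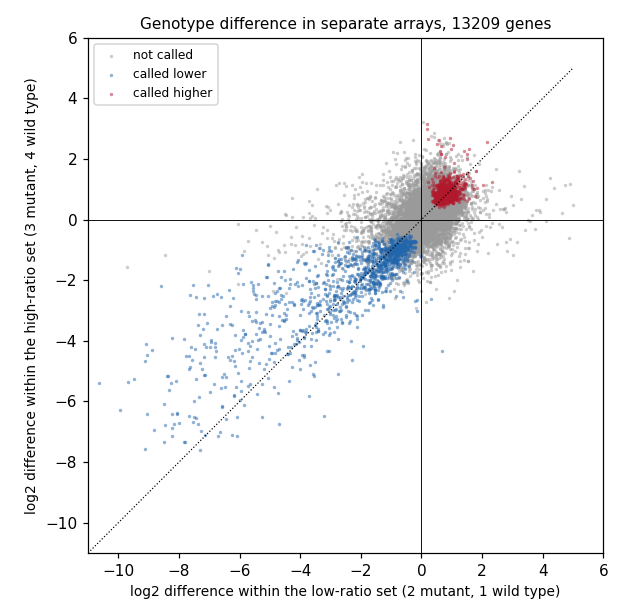
Log2 difference within the low-ratio array set (horizontal axis, 2 mutant arrays and 1 wild-type array) against that within the high-ratio set (vertical axis, 3 mutant and 4 wild-type arrays) for 13209 genes, coloured by the call over all 10 arrays. The dotted line marks equal values. The called falls lie below 0 in both sets with few exceptions. Since the calls were made from both sets together, that is no separate test of agreement. Over all genes, called or not, r is 0.76.

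Regulators of the pachytene programme were next described as a list, the first of 33 written for this comparison. Of its 29 genes, 27 are on the array and 25 were bright enough to test, of which 12 fell and 2 rose, with a median difference of −1.28 (all tested genes, 0.22). Without the filter on low signal the counts over the 27 were the same. Morc2b, a paralog of the chromatin ATPase Morc2a, had the largest fall (−6.85 ± 0.83, adjusted p = 1.55e-04), from 694–2842 in wild type to 3.21–98.4 in mutants. Rfx4, of the RFX factors that drive cilium genes, fell from 957–1957 in wild type to 13.4–89.3 in mutants (−5.69 ± 0.46). Its relatives differed: Rfx2 was at −1.09 and Rfx3 at 0.73, and neither was called. Gtf2a1l, the germ cell form of a subunit of the basal factor TFIIA, fell from 1167–5725 in wild type to 67.6–138 in mutants (−4.94 ± 0.38).

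Other falling regulators were the heat shock factor relative Hsf5 (−2.94), the bromodomain protein Brdt (−3.27), the TBP relative Tbpl1 (−1.72) and Tcfl5 (−1.38). Sox30 (−1.29) and Crem (−1.28), which act on spermatid genes, fell less. Taf7l and Zfp148 rose, the latter without a call on the common median (adjusted p = 0.0589). Taf7l, an X-linked subunit of TFIID in germ cells, gave 7362, 5995, 11770, 10030 and 15920 in mutants and 2780, 5419, 6951, 7189 and 4806 in wild type (1.10 ± 0.18, adjusted p = 0.00168), so its arrays overlap between genotypes unless read within an array set.

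Genes of the piRNA pathway and the germ granule fell together. These proteins make or use small RNAs that guard the germ line, and A-MYB is known to drive pachytene piRNA loci. Of 25 genes on the array, 22 were tested, 15 fell and 2 rose (median −1.25). Piwil1, the PIWI-clade partner of pachytene piRNAs, gave 62.8, 94.4, 25, 78.2 and 88 in mutants and 5824, 7952, 7869, 5628 and 10240 in wild type (−6.88 ± 0.35, adjusted p = 3.20e-07). The lowest wild-type array was 5628 and the highest mutant array 94.4. Ddx25, a helicase of the chromatoid body, fell (−2.73), as did the tudor protein Tdrd7 (−2.02), the latter with an adjusted p of 0.0467 and a call that did not hold on the common median (adjusted p = 0.0737). Smaller falls were seen in Tdrd12 (−1.82), Tdrd5 (−1.79), Tdrd9 (−1.73), Mael (−1.67), Piwil2 (−1.23) and the helicase Ddx4 (−1.05). Arrays of the genotypes did not overlap, with mutants lower, for 4 of the 22 genes, beside 5.7% of all tested genes. Within the low-ratio set the list median was −0.68. Tex15 rose (0.92 ± 0.20), as did Btbd18 (0.74 ± 0.20), which was not called on the common median (adjusted p = 0.223).

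Structural genes of the meiotic chromosome had differences nearer 0. Of 18 tested synapsis, axis and cohesin genes 7 fell and 0 rose (4 were higher at an unadjusted p under 0.05), with a median of −0.42. Syce1, of the central element of the synaptonemal complex, had the largest difference (−1.40 ± 0.35), followed by the telomere anchor Majin (−1.27 ± 0.35) and the meiotic cohesin Stag3 (−1.06 ± 0.22). All 3 lost their call in at least 1 alternative setting, and 4 of the 18 genes were called lower without wild-type replicate 1, 3 or 5. For Sycp3, the axis protein, the signal geometric mean was 17700 in mutants and 25990 in wild type, with a difference of −0.15 (adjusted p = 0.567), and for Sycp1 the difference was −0.38 (adjusted p = 0.141).

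Among 18 tested genes of break formation and recombination 6 fell and 2 rose (median −0.23). Psmc3ip, which with Mnd1 helps the recombinase to invade a homologous strand, gave 1365, 965, 2073, 2066 and 1520 in mutants and 4367, 7834, 8005, 7827 and 12660 in wild type (−2.16 ± 0.20, adjusted p = 1.42e-05). Its groups lay clearly apart. Mnd1 itself was at −1.92 and was not called. The break-forming enzyme Spo11 fell (−1.60 ± 0.34), and so did Mlh3, of the crossover-resolving complex (−1.34 ± 0.18). The recombinase Dmc1 rose (0.83 ± 0.22), which was lost on the common median (adjusted p = 0.207). Msh5, a crossover factor, rose from 11.6–311 in wild type to 77.2–458 in mutants (1.93 ± 0.49), but its other tested probe set had the opposite sign. Without mutant replicate 3, 3 of the 18 genes fell and 0 rose.

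Of 32 tested cell cycle and meiotic division genes 9 fell and 1 rose (median −0.13). The falls were led by Tesmin, a cysteine-rich testis protein (−3.17 ± 0.24, from 2736–4872 in wild type to 205–827 in mutants), the centrosomal kinase Nek2 (−2.86 ± 0.46) and Hspa2, the chaperone that assembles the CDK1 and cyclin B complex in spermatocytes (−2.53 ± 0.18, from 4609–10950 in wild type to 890–1952 in mutants). Nek2 had 4 tested probe sets, 1 of them with the opposite sign. The speedy protein Spdya (−1.74), the inhibitor Cdkn2d (−1.12), Ccnb2 (−1.03) and Aurka (−1.02) fell with smaller differences. Cdk1 (−0.06), Plk1 (0.12) and Ccna2 (0.42) were not called. Without wild-type replicate 1, 5 of the 32 were called lower. The riser was Ccnb3, an X-linked cyclin of early meiosis, described with the X chromosome below.

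In the list of sex chromosome silencing and DNA damage signalling 2 of 23 tested genes fell and 3 rose, with a median of 0.11 that turned to −0.06 on the common median. Without mutant replicate 5 the falls numbered 4, and 7 of the 10 arrays, left out in turn, lowered the rises to 1. The falls were 2 proteins that carry the silencing signal into the chromatin of the X and Y. Mdc1 gave 1306, 1288, 1073, 1335 and 1611 in mutants and 2749, 4718, 4980, 3942 and 5661 in wild type (−1.64 ± 0.19, adjusted p = 1.19e-04). Atr, the kinase, gave 5416, 6174, 5041, 4781 and 6806 in mutants and 8977, 14960, 14370, 10700 and 16300 in wild type (−1.15 ± 0.19, adjusted p = 0.00165). Neither gene's arrays overlapped between genotypes. Atr had 3 tested probe sets, 1 of them with the opposite sign, and its difference within the low-ratio set was −0.63. H2ax, the histone that ATR phosphorylates, was at −1.36 without a call, and Atm (0.58) and Brca1 (0.32) were not called. Chek1 (0.76 ± 0.23) and Chek2 (0.72 ± 0.21) rose narrowly and were not called on the common median (adjusted p = 0.118 and 0.120). Scml2, an X-linked polycomb protein of the germ line, rose 2.70-fold (1.43 ± 0.21, adjusted p = 7.02e-04; common median, 0.0034).

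Testis isoforms of glycolysis had the lowest median of all lists with at least 5 tested genes. Of 17 genes on the array 13 were tested, 10 fell and 0 rose (0 also at an unadjusted p under 0.05), with a median of −3.49. Without the filter 11 of the 17 fell. Beside Gk2 and Ldhc, the intronless lactate dehydrogenase relative Ldhal6b fell from 1839–9668 in wild type to 10.1–84.7 in mutants (−7.25 ± 0.59, adjusted p = 6.56e-06). Pgk2, a retrogene copy of X-linked phosphoglycerate kinase, fell (−5.86), and so did the glucose transporter Slc2a3 (−5.24). The lactate and pyruvate transporter Slc16a7 (−3.88), the pyruvate dehydrogenase retrogene Pdha2 (−3.49) and the enolase Eno4 (−3.15) also fell. The housekeeping forms Tpi1 (−0.59) and Hk1 (−0.53) were not called. The list does not divide cleanly, since the phosphofructokinase Pfkp fell (−2.4) and the testis aldolase Aldoart2 was not called (0.24). The summed signal of the 13 genes was 2169 to 4561 on mutant arrays and 59760 to 112200 on wild-type arrays.

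Testis forms of respiratory chain and mitochondrial proteins fell in 8 of 18 tested genes and rose in 2 (median −0.90). Without the filter 8 of the 22 on the array fell and 1 rose, with a median of −0.67. Cyct, the testis cytochrome c, gave 896, 670, 1158, 874 and 1132 in mutants and 7290, 14610, 13650, 10520 and 19380 in wild type (−3.61 ± 0.20, adjusted p = 3.83e-07). The import receptor relative Tomm20l (−4.70) and the cytochrome oxidase subunit Cox6b2 (−3.43) fell, and further testis subunits fell as well, Cox8c (−2.69) and Cox7b2 (−2.38). The general subunit Ndufa4 (0.79 ± 0.23) and the enzyme Suclg2 (0.72 ± 0.17) rose, and neither was called on the common median (adjusted p = 0.0820 and 0.0886).

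Of the list of germ cell chaperones and protein folding 10 of 17 tested genes fell and 0 rose (0 at an unadjusted p under 0.05), with a median of −2.10. Without the filter 10 of the 24 on the array fell and 0 rose, with a median of −1.06. The largest fall in the list was Cmtm2a, which is no chaperone. Clgn, calmegin, the endoplasmic reticulum chaperone needed to fold sperm surface proteins, gave 295, 243, 151, 232 and 205 in mutants and 5337, 4970, 3450, 1702 and 5269 in wild type (−4.22 ± 0.29, adjusted p = 1.93e-06). The chaperonin subunit Cct6b (−3.80), Dnajb3 (−3.02), Hspa4l (−2.24) and the general chaperonin subunit Tcp1 (−1.60) fell. Mutant Cct6b was 74.1 to 85.6 on 4 arrays and 182 on replicate 4.

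Surface and acrosomal proteins are used by the sperm to meet and enter the egg. Of the ADAM and surface protease list 12 of 22 genes on the array were tested, 7 fell and 0 rose (0 at an unadjusted p under 0.05; median −2.21). Without the filter 8 of the 22 fell, with a median of −0.58. Adam5 fell from 2785–11890 in wild type to 23.6–89.4 in mutants (−6.92 ± 0.39, adjusted p = 3.83e-07), Adam32 from 588–6147 in wild type to 1.74–87.8 in mutants (−6.87 ± 0.99), and Adam3 (−6.07) and Adam18 (−3.92) fell too. These membrane proteins form complexes on the sperm surface. The angiotensin-converting enzyme gene Ace, whose germ cell form is made in spermatids, was at 0.54 and was not called.

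Of the acrosome and zona-binding list 16 of 31 genes on the array were tested, 11 fell and 0 rose (0 at an unadjusted p under 0.05; median −2.50). The same 11 was the count over all 31 without the filter, with a median of −0.53, since 15 genes were too dim to test. Crisp2, a cysteine-rich secretory protein of the acrosome and tail, gave 27.4, 56.7, 124, 191 and 75 in mutants and 8098, 14440, 10590, 4523 and 19300 in wild type (−6.81 ± 0.42, adjusted p = 6.26e-07). Dpy19l2, which anchors the acrosome to the nucleus, fell (−6.55), and so did Dkkl1 (−5.02). For Dkkl1 the wild-type array of the low-ratio set read 5193 and the other 4 read 77.4 to 268. The proteinase acrosin, Acr (−2.51), its binding protein Acrbp (−2.64) and the zona-binding proteins Zpbp2 (−3.73) and Zpbp (−2.38) fell.

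The axoneme is the ring of doublet microtubules with dynein motors, radial spokes and a central pair that beats in the sperm tail. Of 24 tested dynein, docking and dynein assembly genes 14 fell and 0 rose (0 at an unadjusted p under 0.05), with a median of −2.50. The assembly factor Zmynd10 fell from 292–4137 in wild type to 4.5–40.6 in mutants (−6.19 ± 0.67), and a further pair of assembly factors, Dnaaf6 (−5.46 ± 0.55) and Lrrc6 (−4.48), fell with it. Motor subunits fell too: the heavy chains Dnah8 (−4.71), Dnah7a (−3.48), Dnah2 (−2.94) and Dnah1 (−2.73), and the light chain Dynlrb2 (−5.08). Dnah11 was at 1.66 and was not called.

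Of 42 tested genes of the central pair, radial spokes and doublets 30 fell and 1 rose (median −2.75). The low-ratio set alone called 22 and the high-ratio set alone 20. Cfap206, of the radial spoke base, fell from 657–3754 in wild type to 7.7–84.9 in mutants (−6.41 ± 0.69). Spag16, of the central apparatus, fell from 140–1647 in wild type to 1.3–28.4 in mutants (−5.91 ± 0.85). Meig1 (−5.05), the central pair proteins Spag17 (−4.09) and Hydin (−1.97), the dynein regulatory subunit Drc1 (−3.67) and the spoke head proteins Rsph9 (−3.02), Rsph6a (−2.84) and Rsph1 (−2.78) also fell. The nexin-dynein protein Gas8 (0.31) and the spoke protein Rsph3a (0.43) were not called. The summed signal of the 42 genes was 6060 to 8842 on mutant arrays and 39210 to 93740 on wild-type arrays. Leaving out 1 array gave 20 to 32 falls, the fewest without wild-type replicate 1.

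Intraflagellar transport and manchette genes, which build the tail and shape the head, fell in 20 of 34 tested cases and rose in 0 (0 at an unadjusted p under 0.05; median −1.11). The manchette protein Rimbp3 fell from 1367–7264 in wild type to 46.5–142 in mutants (−4.76 ± 0.44) and the guanylate kinase domain protein Lrguk from 681–1146 in wild type to 14.8–91.9 in mutants (−4.43 ± 0.43). Core transport genes fell with smaller differences, Ift172 (−2.41), Ift80 (−1.95), Ift140 (−1.64), Ift88 (−1.26) and the motor heavy chain Dync2h1 (−1.54). Within the low-ratio set 6 of the 34 were called, and without wild-type replicate 1 the count was 13.

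The outer dense fibers and the fibrous sheath surround the axoneme in the tail. Of 18 tested outer dense fiber and fibrous sheath genes 4 fell and 1 rose (median −0.20; without the filter, over 24 genes, −0.004). Septin12, of the sperm annulus (−3.89), Gsto2 (−2.05) and Spag5 (−1.80) fell. For Septin12 the wild-type array of the low-ratio set read 3602 and the other 4 read 425 to 739. Odf2 (−0.80) and Akap3 (−1.08) were not called, and whether the 2 tail groups differ was not tested.

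Of 14 tested sperm channels and transporters 5 fell and 0 rose (1 was higher at an unadjusted p under 0.05; median −1.28), while 15 of 29 on the array were too dim to test. Without the filter 5 of the 29 fell and 0 rose, with a median of −0.50. The organic anion transporter Slco6c1 fell from 837–5808 in wild type to 4.44–98.7 in mutants (−6.05 ± 0.69), and the phospholipid flippase Atp8b3 (−3.85) and the CatSper channel subunit Catsper2 (−1.83) fell too. Of 25 tested kinases and phosphatases 9 fell and 1 rose (median −0.52). Without the filter 9 of the 34 on the array fell and 0 rose, with a median of −0.175. Ppp3r2, the testis calcineurin B subunit, fell from 126–3508 in wild type to 3.63–43.7 in mutants (−6.76 ± 0.91), and its partner Ppp3cc, the testis catalytic subunit, rose by the brightest probe set (0.65 ± 0.19, adjusted p = 0.0432). The mean of its tested probe sets had the opposite sign (−0.56, adjusted p = 0.072), so the direction for Ppp3cc is not settled. Pdcl2, a phosducin-like germ cell protein, gave 336, 309, 289, 271 and 530 in mutants and 9370, 17370, 17030, 9156 and 24750 in wild type (−5.35 ± 0.28, adjusted p = 3.83e-07).

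RNA-binding and translation genes moved both ways. Of 36 tested 16 fell and 4 rose (median −0.49). The intronless poly(A)-binding genes Pabpc2 (−5.84 ± 0.72) and Pabpc6 (−5.01 ± 0.42) fell most, whereas the general Pabpc1 fell by 0.83. Ybx2, the germ cell protein that stores mRNA, gave 282, 306, 118, 183 and 232 in mutants and 3294, 2010, 1888, 1046 and 2665 in wild type (−3.42 ± 0.27, adjusted p = 5.17e-06). The testis poly(A) polymerase Papolb (−2.49) and the DAZ relative Boll (−2.04) fell, and Dazl, which acts earlier, was at 0.23 without a call. All 4 that rose are on a sex chromosome: Nxt2 (0.98), Cstf2 (0.83) and Eif1ax (0.75) on the X, and Eif2s3y (0.94) on the Y. Nxt2 was not called on the common median (adjusted p = 0.104). Cstf2t, the autosomal retrogene copy of Cstf2, fell by 0.62.

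Of 22 tested ubiquitin and proteasome genes 9 fell and 4 rose (median −0.42). Without the filter 9 of the 36 on the array fell and 3 rose, and the median turned to 0.06. The conjugating enzymes Ube2u (−6.05 ± 0.87) and Ube2d2b (−5.71 ± 0.62) fell most. Psma8, the subunit of the spermatocyte proteasome, gave 1358, 1098, 773, 871 and 965 in mutants and 10220, 18050, 16860, 13480 and 22850 in wild type (−3.98 ± 0.23, adjusted p = 4.18e-07). The proteasome activator Psme4 fell by 1.02. Uchl1 (1.79), Psmb10 (1.74) and Skp2 (1.12) rose, Psmb10 without a call on the common median (adjusted p = 0.0740), and for all 3 the array set moved the signal more than the genotype did: Uchl1 was 2544 to 4118 in the low-ratio set and 23.5 to 402 in the other.

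The head cytoskeleton list held 20 tested genes, of which 9 fell and 0 rose (1 was higher at an unadjusted p under 0.05; median −0.81). A further 14 of the 34 on the array were too dim to test. Without the filter 9 of the 34 fell and 0 rose, with a median of −0.09. Beside Spata4 and Dpy19l2 the falls included Spata16, a Golgi protein of acrosome formation (−4.78 ± 0.69), Spata24 (−2.28) and Spata6 (−1.93). Of 20 spermatid chromatin genes on the array 13 were tested, of which 2 fell, Piwil1 and Brdt, and 1 rose, with a median of 0.16 that turned to −0.02 on the common median. The protamine Prm1 had a geometric mean of 101 in mutants and 150 in wild type (0.03, adjusted p = 0.977), and Prm2 of 72.4 and 39.9 (adjusted p = 0.152). The median signal over all probe sets other than controls was 88.7 to 129.6 on the 10 arrays. The riser was Cdyl (0.70 ± 0.16), a chromodomain protein, which was not called on the common median (adjusted p = 0.158). Cdyl had 3 tested probe sets, 1 of them with the opposite sign.

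**Figure D3:**
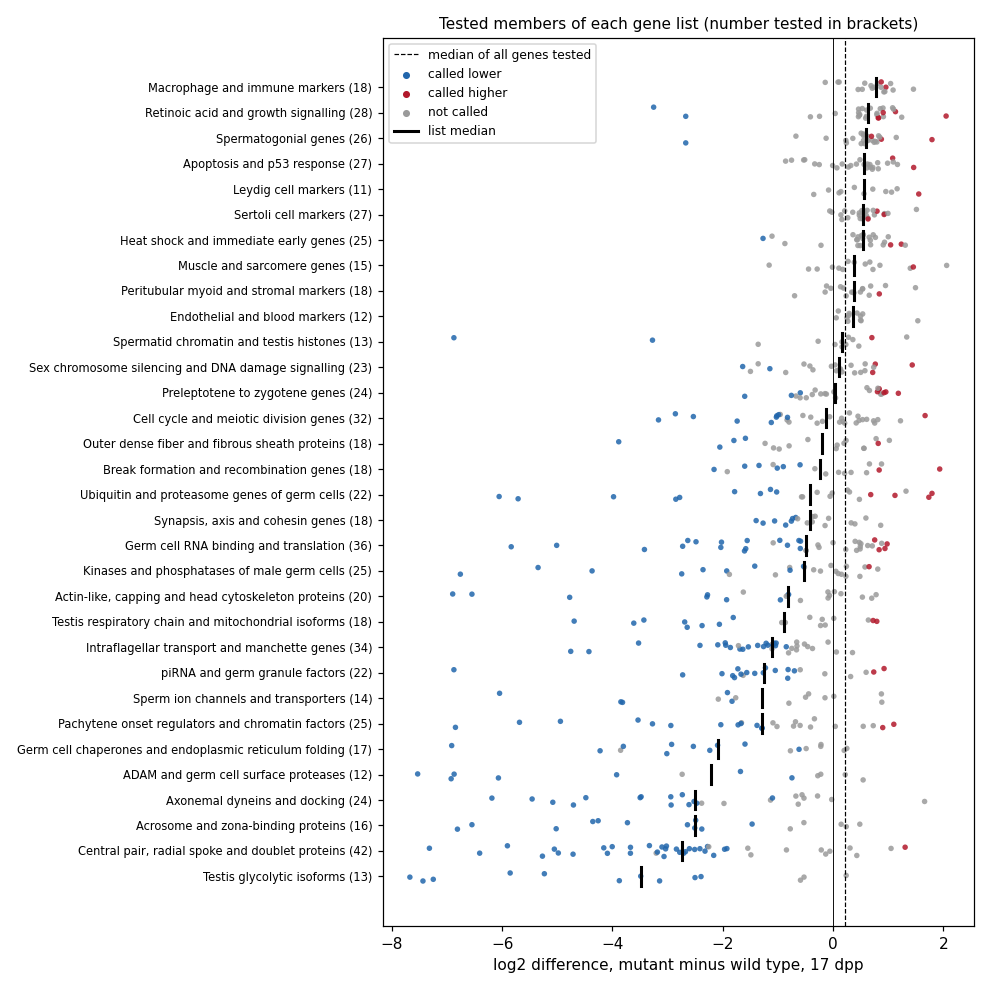
Log2 difference (mutant minus wild type, 17 dpp, horizontal axis) of each tested gene in 32 gene lists (rows, number tested in brackets), ordered by the list median (black bar). Blue points are called lower, red called higher and grey not called. The dashed line is the median of all tested genes, 0.22. Among tested genes, glycolytic isoforms, at a median of −3.49, and axonemal, acrosomal and surface protein lists lie lowest. Somatic and spermatogonial lists lie to the right of the dashed line. The order depends on the filter on low signal. Without it the acrosomal and surface medians were −0.53 and −0.58, nearer 0 than those of the piRNA list (−1.23) and the pachytene regulators (−1.09).

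Spermatogonial genes and genes of the first meiotic stages were described next. Of 26 tested spermatogonial genes 1 fell and 3 rose (median 0.60; common median, 0.42), beside 9.24% and 5.81% of all tested genes. The one that fell was Id4, an inhibitor of helix-loop-helix factors that marks stem spermatogonia and is known to be made in spermatocytes too. It gave 1627, 1704, 1744, 939 and 1846 in mutants and 6002, 11820, 10400, 9340 and 15270 in wild type (−2.67 ± 0.26, adjusted p = 2.21e-05), and all wild-type arrays lay above all mutant arrays. The stem cell receptor Gfra1 was at −0.13 and Kit at 0.76, both not called. Zbtb16 (0.87 ± 0.24) and Dnmt3a (0.69 ± 0.20) rose and were not called on the common median (adjusted p = 0.106 and 0.241). Leaving out 1 array gave 1 to 7 rises, the most without wild-type replicate 4.

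Of 24 preleptotene to zygotene genes 3 fell and 6 rose, with a median of 0.03 that turned to −0.15 on the common median. Those that fell were Spo11, Hormad1 (−0.76 ± 0.19) and Meioc (−0.60 ± 0.17). The risers included Stra8, the gatekeeper of meiotic entry (0.83), the replication factors Cdt1 (0.96 ± 0.27) and Mcm2 (0.80), Tex15, Dmc1 and the X-linked homeobox gene Rhox13 (1.18 ± 0.30), and 2 of the 6 kept the call on the common median. Leaving out 1 array gave 1 to 3 falls and 1 to 7 rises in this list. Of 28 tested retinoic acid and growth signalling genes 2 fell and 5 rose (median 0.64), and 0 rose without wild-type replicate 1. Rdh11, a retinal reductase, gave 160, 252, 718, 493 and 561 in mutants and 2628, 4915, 5185, 3336 and 6908 in wild type (−3.25 ± 0.24, adjusted p = 2.92e-06). The retinoic acid synthase Aldh1a3 rose from 117–193 in wild type to 302–477 in mutants (1.13 ± 0.26, adjusted p = 0.0146; common median, 0.0563). The TGF-β family ligand Lefty1 rose (2.05 ± 0.57) at a signal of 9.24 to 54.7 in wild type, near the bottom of the scale, and was not called on the common median (adjusted p = 0.0526).

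Many of the rises were of X-linked genes. Of 454 X-linked genes tested 155 rose (34.1%) and 0 fell (0 at an unadjusted p under 0.05, against 292 higher), with a median of 0.69. On the autosomes 605 of 12685 rose (4.77%) and 1213 fell (9.56%), with a median of 0.19. On the common median 51 X-linked and 125 autosomal genes rose, and with quantile normalization 155 and 631. X-linked rises numbered 171 with 50 added to every signal, 187 without wild-type replicate 4, 270 in all 18 arrays with 3 sets and 308 with array weights. Autosomal rises in those settings were 716, 1017, 2088 and 2145. Other settings lowered the X-linked count. The count of X-linked rises was 40 within the high-ratio set and 0 within the low-ratio set (99 at an unadjusted p under 0.05), 7 with no term for the array set, 42 without wild-type replicate 1, 83 without mutant replicate 3, 94 without wild-type replicate 5 and 97 without mutant replicate 2, while the median stayed between 0.51 and 0.79 in those settings. Of the 7 tested Y-linked genes 6 rose: Zfy2 (1.39), a zinc finger factor of meiosis, Uba1y (1.11), a ubiquitin-activating enzyme, Usp9y (1.09), Kdm5d (0.97), a histone demethylase, Eif2s3y (0.94) and Uty (0.81). Orly was at −0.04. On the common median 5 of the 7 were called.

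**Figure D4:**
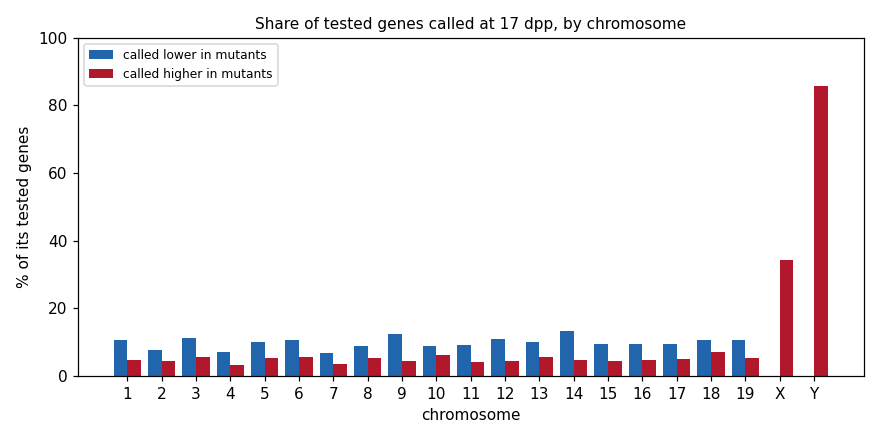
Percentage of the tested genes of each chromosome (horizontal axis) called lower (blue) or higher (red) in mutants at 17 dpp. The X chromosome has 34.1% higher and 0% lower of 454 genes, and the Y chromosome has 6 of 7 genes higher. Each autosome has more genes lower than higher.

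Among the 8 largest rises by the naming rule 4 are X-linked. Ccnb3 gave 2200, 1488, 1712, 1747 and 2325 in mutants and 523, 748, 821, 672 and 361 in wild type (1.67 ± 0.24, adjusted p = 6.65e-04). No mutant array came near the wild-type arrays. Irak1, a kinase of innate immune signalling, gave 1051, 1402, 2027, 2337 and 1523 in mutants and 705, 195, 713, 806 and 418 in wild type (1.70 ± 0.38, adjusted p = 0.0125). The MAGE family gene Magea6 rose (1.40 ± 0.28), and the cilium-related gene Efhc2 rose (1.30 ± 0.28). All 4 were called on the common median, with adjusted p of 0.0236 for Irak1, 0.00515 for Ccnb3, 0.0319 for Magea6 and 0.0281 for Efhc2.

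Ccng1, an autosomal gene for a cyclin induced by p53, gave 1776, 2112, 4099, 2906 and 5096 in mutants and 674, 1352, 1595, 1583 and 1307 in wild type (1.46 ± 0.18, adjusted p = 1.86e-04). The mutant arrays were higher in both array sets, which the naming rule requires. Cdkn1a, the cell cycle inhibitor p21, gave 571, 621, 440, 339 and 300 in mutants and 318, 176, 170, 130 and 171 in wild type (1.08 ± 0.22, adjusted p = 0.00761), with an overlap only through wild-type replicate 1. Both were called on the common median (adjusted p = 0.00421 and 0.0312). Of the 27 tested genes of the apoptosis and p53 list these 2 rose and 0 fell (1 was lower at an unadjusted p under 0.05), with a median of 0.56. Rises over all tested genes were 5.81%. Mdm2 (−0.86) and Bbc3 (0.56), also p53 targets, were not called. Pcbp4, an RNA-binding protein, rose (1.30 ± 0.28), as did the long noncoding RNA host gene Dleu2 (1.37 ± 0.29).

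Among 25 heat shock and immediate early genes 1 fell and 2 rose (median 0.54). The co-chaperone Dnajb1 fell (−1.27 ± 0.20, adjusted p = 9.38e-04), and Jund (1.24 ± 0.36) and Fos (1.04 ± 0.26) rose without a call on the common median (adjusted p = 0.0514 and 0.103). Jund had 2 tested probe sets, 1 of them with the opposite sign. Muscle genes, of which 15 of 35 were bright enough to test, held 1 riser, Mybpc1 (1.45 ± 0.38; common median, adjusted p = 0.0781, not called), and 0 that fell (0 at an unadjusted p under 0.05).

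Markers of the somatic cells of the testis were counted in the same way. Of 27 tested Sertoli cell genes 3 rose and 0 fell, beside 5.81% and 9.24% of all tested genes. At an unadjusted p under 0.05, 14 were higher and 0 lower. The median was 0.55, and 25 of 27 were above 0. The count of rises was 1 without mutant replicate 3 or wild-type replicate 1, 5 without mutant replicate 5 and 6 without wild-type replicate 4. Amhr2, the receptor of anti-Müllerian hormone, gave 24280, 19450, 31960, 31590 and 17840 in mutants and 14420, 15270, 9274, 16020 and 11220 in wild type (0.92 ± 0.22, adjusted p = 0.0185; common median, 0.0158). Dhh, the ligand by which Sertoli cells signal to Leydig cells, rose (0.80 ± 0.19), and so did the gap junction gene Gja1 (0.63 ± 0.18), but neither was called on the common median (adjusted p = 0.0572 and 0.0709). Gja1 had 6 tested probe sets, 1 of them with the opposite sign. The defining factors Sox9 (0.75), Wt1 (0.52) and Gata4 (−0.06) were not called. The summed signal of the 27 genes was 184400 to 218800 on mutant arrays and 111100 to 155800 on wild-type arrays. Like the other sums given here, it adds linear signals with no adjustment for array set or scale, so bright genes weigh most.

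Of 11 Leydig cell genes 1 rose, Ptgds (1.55 ± 0.43; common median, adjusted p = 0.0909, not called), and 0 fell (0 at an unadjusted p under 0.05), with a summed signal of 10520 to 15460 against 6600 to 12030. Of 18 peritubular and stromal genes 1 rose, the matrix gene Dcn (0.84 ± 0.20), and 0 fell (0 at an unadjusted p under 0.05), with sums of 53570 to 65820 against 32170 to 58630. Of 18 macrophage and immune genes 2 rose, the receptor Csf1r (0.96 ± 0.26) and the adaptor Tyrobp (0.87 ± 0.25), neither called on the common median (adjusted p = 0.0750 and 0.131), and 0 fell (0 at an unadjusted p under 0.05), with sums of 10230 to 17840 against 5634 to 12220, and the count of rises ran from 0 to 4 when 1 array was left out. No endothelial gene of 12 was called (limma; 1 higher and 0 lower at an unadjusted p under 0.05), with sums of 2080 to 3011 against 1603 to 2266. Only 1 of the 12 epididymis genes on the array was bright enough to test, Rnase10 (−0.11). The somatic lists' medians of 0.36 to 0.77 stand beside 0.22 for all genes and 0.69 for X-linked genes. The part of a larger somatic share of the RNA in the rises and falls was not tested.

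The difference was then compared with that at 14 dpp, in a fit of all 18 arrays with 3 array sets. The high-ratio set holds arrays of 17 dpp only, and the set with a ratio under 1.9 holds arrays of 14 dpp only. Just the low-ratio set holds both ages. A change with age therefore cannot be fully told apart from a change with array set. Among the 13209 genes tested at 17 dpp, 91 were called lower at 14 dpp in the fit of 18 arrays. All 91 were among the 1220 called lower at 17 dpp in the separate fit of the 10 arrays of that age. A gene too dim to test at 17 dpp could not enter this count. The arrays of 14 dpp were mutant replicates 1 to 5 and wild-type replicates 1 to 3. The genotype difference itself changed between the ages for 416 of 34764 probe sets (1.2%), toward a lower mutant signal at 17 dpp for 394 and toward a higher one for 22. Of the 1220 genes that fell at 17 dpp, 280 had a larger fall than at 14 dpp by this test, and of the 768 that rose, 10 had a larger rise.

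Cyct had a difference of −1.79 at 14 dpp, and its change to 17 dpp was −1.83 ± 0.28 (adjusted p = 0.00398). Psmc3ip was at −0.73 at the younger age, with a change of −1.43 ± 0.25 (adjusted p = 0.00797). Piwil1 was at −4.04, with a change of −2.84 ± 0.49 (adjusted p = 0.00753), and Spata4 at −4.51, with a change of −2.39 ± 0.43 (adjusted p = 0.00876). These genes had thus already fallen at 14 dpp, other than Psmc3ip, which was not called there (adjusted p = 0.229). For Cmtm2b the difference was −2.71 at 14 dpp (adjusted p = 0.455) and the change was −4.74 ± 1.08 (adjusted p = 0.036). For other leading genes the change was not past the threshold: it was −1.46 ± 0.60 for Mybl1 (adjusted p = 0.320), −1.47 ± 0.95 for Ldhc (adjusted p = 0.550) and −2.33 ± 0.83 for Eid3 (adjusted p = 0.228). Among the rises the change was 0.77 ± 0.33 for Ccnb3 (adjusted p = 0.344) and 0.85 ± 0.22 for Ccng1 (adjusted p = 0.0782).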

How the data were processed

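The labels describe total RNA of homogenised testes, biotin-labelled and hybridised to Affymetrix Mouse Genome 430 2.0 arrays. The authors deposited 1 linear signal intensity per probe set and array, made with Affymetrix GCOS per the series' text and with MAS5 per the submitters' processing notes, which name no version. Array scaling differed: the mean signal, trimmed by 2% at either end, was 500 on 3 arrays of 17 dpp and 394.9 on 7. Detection calls were not used here, so no probe set could be called absent.

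From these signals, log2 values were computed with nothing added. Of 45101 probe sets, 64 controls were left out. The platform table named 1 gene for 34945 of the other 45037, several for 932 and none for 9160. Testing required at least 5 of the 10 arrays of 17 dpp with a signal over that array's 40th percentile, which 27654 probe sets met. That filter keeps genes bright in only 1 genotype, so lists were also counted without it. For each of 13209 genes the brightest of these probe sets naming that gene alone was taken.

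The log2 values were fitted with limma 3.58.1 (R 4.3.3), lmFit and eBayes with an intensity trend, with terms for genotype and array set (β-actin 3′ to 5′ ratio above or below 10, 7 residual degrees of freedom), two-sided, with Benjamini-Hochberg adjustment over all tested probe sets and a threshold of 0.05. Each ± is limma's standard error. The set terms make a difference depend on both genotypes within each set. The fit of both ages used all 18 arrays, 3 array sets (bounds 1.9 and 10) and 34764 probe sets above the percentile on at least 3 arrays. The scripts were tested on simulated data. Precision is limited by the number of arrays.

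Genes named were Mybl1, the 8 largest falls and 8 largest rises among called genes whose arrays do not overlap, with the same sign in both sets and a geometric mean of at least 300 in the higher group, and up to 3 called members per list and direction, plus list members named with their values beside the list's count. Spata4 is a list member and was singled out for its adjusted p after the values were seen, as were the Y-linked genes. The comparison and its 33 lists (1010 entries, 881 on the array) were chosen with earlier results of these data known, and lists share members. Lists are described by counts and medians, with no set test. Gene names were matched by Entrez ID for 34737 of 34945 probe sets to RefSeq (GRCm38.p6), which also gave chromosomes and promoter windows, the latter found for 10645 of the 13209 genes. The arrays carry no coordinates.

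Whether replicate numbers pair the arrays was checked by correlating, over probe sets, how far mutant and wild-type arrays of 1 number departed from their group's mean. The correlation was 0.82, −0.23, 0.25, 0.46 and 0.24 for the 5 numbers, and number 2 joins arrays of different sets, so the numbers were not taken as pairs. Arrays were analysed with Python 3.11.15 and pandas 2.3.3 where limma was not used.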

Additional observations from a re-analysis of the deposited data

Results flagged for a closer look

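Of 228 groups of 5 arrays examined among the named genes, 14 held 1 array far from the other 4, and chance alone marks about 1 in 20. In 9 of the 14 that array was wild-type replicate 1, the only wild-type array of the low-ratio set: it was the highest for Majin (1051), Septin12 (3602), Uchl1 (2544) and Dhh (1470), and the lowest for Ccng1 (674), Skp2 (162.6), Hormad1 (1520), Meioc (1842) and Id2 (826.3). The other 5 were wild-type replicate 3 for Ptgds (56.95, the lowest), wild-type replicate 5 for Aldh1a3 (117.4, the lowest), mutant replicate 4 for Cct6b (182, the highest) and Id4 (939.3, the lowest), and mutant replicate 3 for Csf1r (6051, the highest).

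For 20 of the 114 named genes the genotype difference itself changed between 14 and 17 dpp (limma interaction term), in all 20 toward a lower mutant signal at 17 dpp. The change was largest for Cmtm2b (−4.74), Pabpc6 (−3.86), Rimbp3 (−3.30), Lrguk (−2.92), Piwil1 (−2.84), Septin12 (−2.83) and the kinase Stk33 (−2.76). It was −2.39 for Spata4, −2.14 for Clgn, −2.07 for Ybx2, −2.002 for Rdh11, −1.97 for Ddx25, −1.94 for Brdt, −1.83 for Cyct, −1.81 for Pdcl2 and −1.67 for Psma8. Smaller changes were found for Id4 (−1.57), Psmc3ip (−1.43), Cox6b2 (−1.41) and Mdc1 (−1.15).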

How the results depend on the processing

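Most named falls held across the settings tried, and few named rises did. Of 69 named genes that fell, 45 kept the call under every alternative run and 54 under all but the within-set fits. Of 45 that rose, 0 and 4 did (Ccnb3, Magea6, Pcbp4 and Eif2s3y). Only Ppp3cc turned its direction, to −0.5618 with the mean of its probe sets. Probe sets called numbered 3025 (1855 lower, 1170 higher). With no array set term they were 889 (855 and 34), within the low-ratio set 597 (574 and 23), within the high-ratio set 1433 (1219 and 214), in all 18 arrays with 3 sets 6789 (2835 and 3954) and with array weights 6845 (2791 and 4054). Those higher were 574 with the set as a random block, 650 in all 18 arrays without sets and 280 on a common median. With quantile normalization they were 1163. With the replicate number as a block (replicate block) 2019 were called, 1467 lower and 552 higher, a result that rests on numbers not shown to pair the arrays. Leaving out 1 array gave 1417 to 3950 in all, 1198 to 2072 lower and 219 to 1878 higher, lowest without wild-type replicate 1 and highest without wild-type replicate 4. Higher calls also moved by over 1.5 times without mutant replicates 1 (652), 2 (507) and 3 (366) and wild-type replicates 2 (739), 3 (579) and 5 (466). The 416 changes between ages became 71 with no array set term, 734 with 50 added to the signal and 195 with a replicate block, and 79 (without wild-type replicate 3 of 14 dpp) to 925 (without wild-type replicate 4 of 17 dpp) when 1 array was left out. The cause of these shifts was not tested. Falls to signals below the arrays' 40th percentile (49.2 to 90.0) have no settled size.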
